A study of Mus musculus with 3 samples.

Results

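The VEGF system of the adult mouse renal corpuscle, the glomerular capillary tuft with its capsule, was examined through 9 genes. These were the ligand genes Vegfa, Vegfb, Vegfc and Pgf, the receptor genes Kdr, Flt1 and Flt4, and the neuropilin genes Nrp1 and Nrp2. The genes were listed by name, and each was read from the probe set that the platform annotation ties to that symbol alone. All 9 had such a probe set, out of 19938 genes named in this way among 35557 probe sets. The series held 3 samples of 1 group, so no condition could be set against another, and the values describe which of these genes stood above background and how far the preparations differed. All samples came from CD-1 mice, wild-type males aged 7 to 9 weeks, and each pooled about 2 kidneys. Tissue was digested at 37 °C in collagenase A (0.5%, 15 minutes), and corpuscles were collected through filters of 100, 70 and 40 µm, with no sorting of cells. Every cell type of the corpuscle, and tubule fragments that came through the filters, could therefore contribute RNA, and fewer cells of a type cannot be told apart from less RNA per cell.

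VEGF-A is secreted by podocytes and reaches the glomerular endothelium across the basement membrane, where it keeps the fenestrated capillary in place. It signals mainly through the tyrosine kinase receptor encoded by Kdr. Flt1 encodes a receptor with weak kinase activity that binds VEGF-A, VEGF-B and placental growth factor and also exists as a soluble decoy. Flt4 encodes the receptor of VEGF-C and VEGF-D, best known from lymphatic vessels. The neuropilins are co-receptors without a kinase domain, shared with the class 3 semaphorins.

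The array read each gene as 1 value, so the splice forms of VEGF-A, or membrane-bound and soluble FLT1, cannot be told apart. The annotation lists 9 curated RefSeq transcripts for the Vegfa probe set, 6 for that of Nrp2, 2 each for those of Vegfb and Pgf, and 1 for each of the others. No member was covered by a probe set shared with another gene. Each probe set binds with its own affinity. Signals of different members were therefore set against background. Heights above background, and fixed signal levels, keep this difference in affinity, so an order of members by them is not an order of RNA amount.

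Background was set on each array by odorant and pheromone receptors, genes of the nose that kidney is not known to use widely, as the 95th percentile of their 1212 probe sets. It lay at 6.90, 6.96 and 6.92 log2 on replicates 1, 2 and 3. All 9 members were detected above it (limma, one-sided, adjusted p under 0.05), against 58.9% of all 19938 genes. The members lay a median of 1.40 log2 above background, with a range from 0.15 to 5.39, and the median over all genes was 0.37. A stricter background, the 99th percentile of the same receptors, lay between 7.52 and 7.58 log2. Above it 7 of 9 members were detected, against 41.7% of all genes, and Pgf and Flt4 were not. A linear signal of 150 was exceeded on all 3 arrays by 8 members (51.3% of all genes). Signals of 500 and of 1000 were each exceeded by 4 members, Vegfa, Kdr, Flt1 and Nrp1, against 17.2% and 7.59% of all genes.

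**Figure D1:**
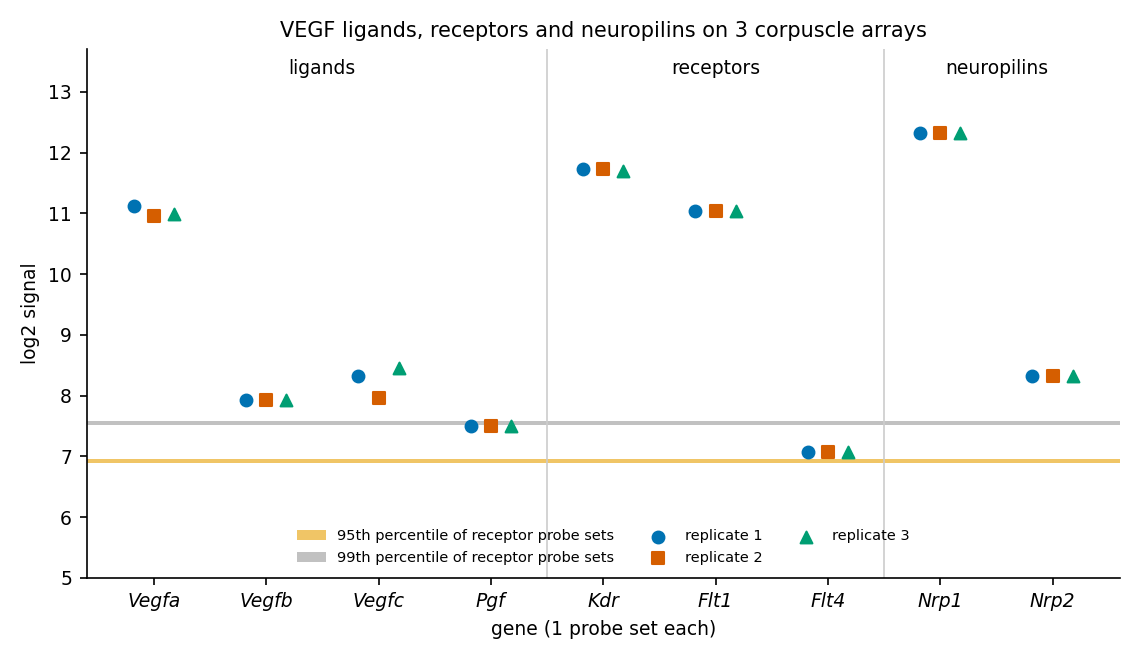
The log2 signal (vertical axis) of each of the 9 genes (horizontal axis) on each of the 3 arrays, with bands for the 95th (orange) and 99th (grey) percentile of receptor probe sets. Vegfa, Kdr, Flt1 and Nrp1 lie far above both bands, the Pgf points lie just under the grey band, and Flt4 lies just above the orange one.

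Many signals in the deposited table are the same on several arrays to the last decimal, and this limits what can be said of spread. Of the members, 6 held 1 value on all 3 arrays, Kdr held 2 values, and only Vegfa and Vegfc held 3. Over all genes 54.2% held 1 value, 27.5% held 2 and 18.3% held 3. An SD of 0 below is therefore a property of the table and is not an error of 0. For scale, the 3013 detected genes with 3 different values had a median SD of 0.094 log2.

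Of the ligand genes, Vegfa was measured at 11.12 log2 on replicate 1, 10.95 on replicate 2 and 11.00 on replicate 3, which as linear signals are 2230, 1975 and 2041. The arrays thus differed by 1.13-fold between the highest, replicate 1, and the lowest, replicate 2. Its mean of 11.02 ± 0.09 log2 (SD, n = 3) was 4.10 above background, with a limma standard error of 0.046, or 0.066 with the spread of genes with 3 different values. That SD was close to the median SD of 0.090 among the 362 detected genes with 3 different values that lay within 0.5 log2 of it.

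Vegfc, a ligand gene for the receptors encoded by Flt4 and Kdr, gave 8.31 log2 on replicate 1, 7.97 on replicate 2 and 8.45 on replicate 3. It averaged 8.24 ± 0.25 log2 (SD, n = 3), 1.32 above background. The limma standard error was 0.036, and with the spread of genes with 3 different values it was 0.11. The first follows the level of a gene, with no visible weight on its own spread. This was the largest SD among the 9 genes. The highest and lowest arrays were 1.40-fold apart, yet each array stood at least 1.01 log2 above its own background. Among 800 detected genes of similar level with 3 different values, the median SD was 0.10 and the 95th percentile 0.37.

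Vegfb, whose product binds the receptor encoded by Flt1, had the same 7.92 log2 on all arrays (242 as a linear signal), which was 1.00 above background. Pgf, which encodes placental growth factor, had the same 7.50 log2 on all arrays (181 as a linear signal). It was 0.57 above the 95th percentile of receptors and 0.062 below the 99th, so its call rested on which percentile was used. The other ligand genes passed both levels.

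Of the receptor genes, Kdr gave 11.73 log2 on replicates 1 and 2 and 11.69 on replicate 3, and the linear signals were 3388, 3388 and 3313. Its mean of 11.72 ± 0.02 log2 (SD, n = 3) was 4.79 above background with a standard error of 0.047. Flt1 had the same 11.04 log2 on all arrays (2110 as a linear signal), 4.12 above background. Against the stricter background Kdr was 4.16 and Flt1 3.48 log2 higher.

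Flt4 had the same 7.07 log2 on all arrays (135 as a linear signal). It lay 0.18, 0.12 and 0.16 above background on replicates 1, 2 and 3, with a mean of 0.15. It was 0.49 below the 99th percentile of receptors and under a linear signal of 150. With a standard error taken from genes with 3 different values, 0.065 in place of 0.029, Flt4 no longer passed (limma-based, adjusted p = 0.0582), while the other 8 members did, with adjusted p from 1.12e-07 for Nrp1 to 0.000257 for Pgf. Of 1196 receptor genes that set the background, 54 (4.52%) were themselves called. Background was a percentile of these receptors' own probe sets, so a small share above it was fixed by that definition. The share therefore does not test the call of Flt4. A level above background, such as that of Flt4, was still reached by some genes of the background set.

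Of the neuropilin genes, Nrp1 had the same 12.31 log2 on all arrays (5091 as a linear signal), 5.39 above background. Nrp2 had the same 8.33 log2 on all arrays (321 as a linear signal), 1.40 above background. Both passed the stricter level.

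The upstream sequences of the 3 receptor genes and of Vegfa are shown because they include the member nearest background, Flt4, and 3 members more than 4 log2 above it. Each is the RefSeq promoter window of GRCm38.p6, from 250 bases before to 50 after an annotated start, written 5′ to 3′ on the strand of the gene. All 9 members had a window, 11 in all, since Vegfa and Pgf have 2 annotated starts. Capitals mark matches on either strand to 4 motifs, the GC box GGGCGG, the cAMP response element TGACGTCA, the TATA box TATAAA and an extended ETS core CCGGAA. The E-box CACGTG was searched too and had no match in any window of the 9 genes. The Flt1 window is chr5:147725962-147726261 (minus strand), that of Kdr chr5:75978406-75978705 (minus strand), that of Flt4 chr11:49609429-49609728 (plus strand) and that of Vegfa chr17:46032328-46032627 (minus strand).
Flt1: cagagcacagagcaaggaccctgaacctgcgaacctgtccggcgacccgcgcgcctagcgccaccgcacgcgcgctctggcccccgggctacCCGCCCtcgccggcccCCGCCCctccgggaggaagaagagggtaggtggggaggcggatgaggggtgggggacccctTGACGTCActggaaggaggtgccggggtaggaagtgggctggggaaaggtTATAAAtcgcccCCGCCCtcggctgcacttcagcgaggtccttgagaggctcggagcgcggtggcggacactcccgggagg
Kdr: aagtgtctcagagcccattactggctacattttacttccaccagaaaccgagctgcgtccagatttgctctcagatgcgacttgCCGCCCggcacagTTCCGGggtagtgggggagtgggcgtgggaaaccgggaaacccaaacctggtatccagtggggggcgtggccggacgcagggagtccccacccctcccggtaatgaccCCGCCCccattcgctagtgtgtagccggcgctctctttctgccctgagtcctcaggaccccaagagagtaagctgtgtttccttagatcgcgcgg
Flt4: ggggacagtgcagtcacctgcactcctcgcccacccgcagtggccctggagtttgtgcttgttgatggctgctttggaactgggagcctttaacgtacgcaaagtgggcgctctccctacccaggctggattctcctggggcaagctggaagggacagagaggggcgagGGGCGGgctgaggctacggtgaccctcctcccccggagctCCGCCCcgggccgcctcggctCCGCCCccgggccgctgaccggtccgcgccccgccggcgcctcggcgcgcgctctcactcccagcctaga
Vegfa: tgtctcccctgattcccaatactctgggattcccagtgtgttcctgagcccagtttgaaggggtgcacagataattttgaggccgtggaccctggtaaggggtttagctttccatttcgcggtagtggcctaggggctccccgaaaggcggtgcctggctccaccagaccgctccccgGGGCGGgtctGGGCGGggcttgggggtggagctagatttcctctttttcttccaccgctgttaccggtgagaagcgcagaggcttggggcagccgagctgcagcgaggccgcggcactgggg

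Among the receptor genes, Flt1 was the gene with a TATA box, at position -31, and with a cAMP response element, at position -81 (the first base of the match on the strand shown, counted from the start as 0). Of all 32851 windows of the same length, 13.6% held that TATA box and 1.79% that element. Kdr had neither, and had the ETS core at position -153, which 14.9% of all windows held. The GC box occurred in the first window of all 9 members, with 1 match in Nrp1 and 5 in Nrp2, where a pair of matches overlapped by 1 base. Of all windows, which include those of further starts, 35.7% held it. The second window of Vegfa had 1 match and that of Pgf 0. The GC content of the first windows ran from 60.7% (Kdr) to 75.3% (Vegfb), and the share of all windows was not matched for it. Flt4, near background, had 3 GC boxes, as had Flt1, and Kdr had 2. These matches are a description of letters in the window.

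**Figure D2:**
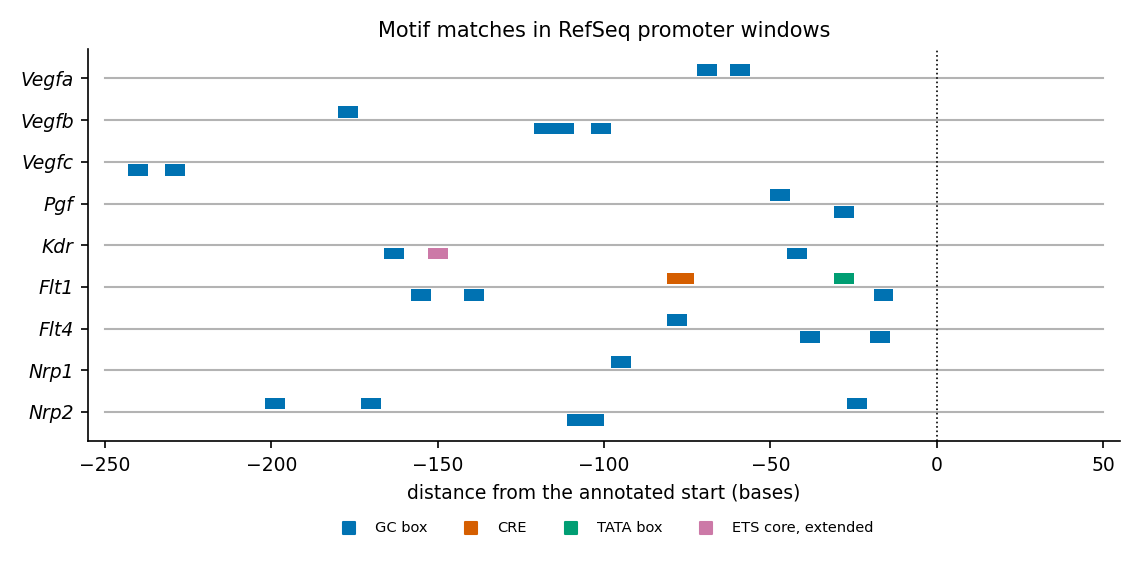
Motif matches in the first RefSeq promoter window of each gene (rows), by distance in bases from the annotated start (horizontal axis), with boxes above the line for the strand of the gene and below it for the other strand. GC boxes (blue) are present in all 9 windows, and the cAMP response element (CRE, orange) and TATA box (green) appear in that of Flt1 alone.

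The other genes of VEGF signalling were then counted by role. In all, 121 genes were measured in 7 lists, and 111 (91.7%) were detected, with a median of 1.68 log2 above background, against 58.9% of all genes and a median of 0.37. Above the stricter background 97 of them were detected, against 41.7% of all genes. The lists hold many broadly used genes, and this share says nothing of VEGF activity.

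Of 7 genes for VEGF-C and VEGF-D and their maturation, 6 were detected. The highest above background was Vegfd, which encodes the remaining VEGF receptor ligand. It gave 9.86, 9.48 and 9.77 log2 on replicates 1, 2 and 3, a mean of 9.70 ± 0.20 (SD, n = 3) and 2.78 above background. The protease genes Pcsk5 and Furin, whose products cut VEGF-C and VEGF-D precursors, were 1.34 above background each. Adamts3, which encodes the protease that completes VEGF-C processing, was at 7.64 ± 0.05 log2, 0.72 above background. Ccbe1, the cofactor gene of that step, was not detected, at 6.84 log2.

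Of 12 genes for class 3 semaphorins, most of which bind neuropilins, and for their plexin receptors, 9 were detected. Sema3e, whose product can signal through plexin D1 without a neuropilin, held 10.40 log2 on every array, 3.48 above background. Sema3g was at 9.36, 9.65 and 9.68 log2 on replicates 1, 2 and 3, a mean of 9.56 ± 0.18. Plxna1 held 8.92. Sema3a and Sema3c, which encode ligands of neuropilins, were not detected, at 6.45 and 5.85, nor was Sema3d.

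Of 17 genes for VEGF receptor partners and phosphatases, 16 were detected, and 7 exceeded a linear signal of 1000 on all arrays. Itgb1, an integrin gene, was at 12.40 ± 0.01 log2 (SD, n = 3), Efnb2, whose product takes part in VEGF receptor uptake, held 11.67, and Ptprb, the endothelial phosphatase gene, was at 11.23 ± 0.03. Itgb3, whose product pairs with the integrin alpha-V chain as a partner of the KDR receptor, was not detected at 6.72.

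Of 39 signal transducers measured, 35 were detected. The small GTPase genes Cdc42, Rac1 and Nras were at 12.34 ± 0.01, 11.52 ± 0.01 and 11.08 ± 0.01 log2 (SD, n = 3). Src and the adaptor gene Sh2d2a, at 6.70 and 6.52, were not detected, nor were Nfatc2 and Sphk1.

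Of 16 genes that endothelium is known to raise on VEGF stimulation, 15 were detected, and 1 exceeded a linear signal of 1000. That was Adamts1, a protease gene, at 10.05 ± 0.02 log2 (SD, n = 3). Angpt2, which encodes an antagonist ligand of the TIE2 receptor, was at 9.43 ± 0.04, and Rcan1, the calcineurin inhibitor gene, held 9.20. Ptgs2 was not detected at 6.81. The other 12 detected genes lay between 0.20 and 1.42 log2 above background.

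All 16 regulators of Vegfa transcription and mRNA were detected. Epas1, which encodes a hypoxia-inducible factor, was at 11.96 ± 0.02 log2 (SD, n = 3), the podocyte transcription factor gene Wt1 held 10.79, and Hnrnpl, which encodes a binder of the Vegfa mRNA, was at 10.16 ± 0.03. Of the genes for extracellular VEGF binding and heparan sulfate, 14 of 14 measured were detected. Sparc, whose product binds VEGF-A, was at 13.38 ± 0.03 log2, and the syndecan genes Sdc2 and Sdc4 were at 10.48 ± 0.04 and 10.27 ± 0.08.

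**Figure D3:**
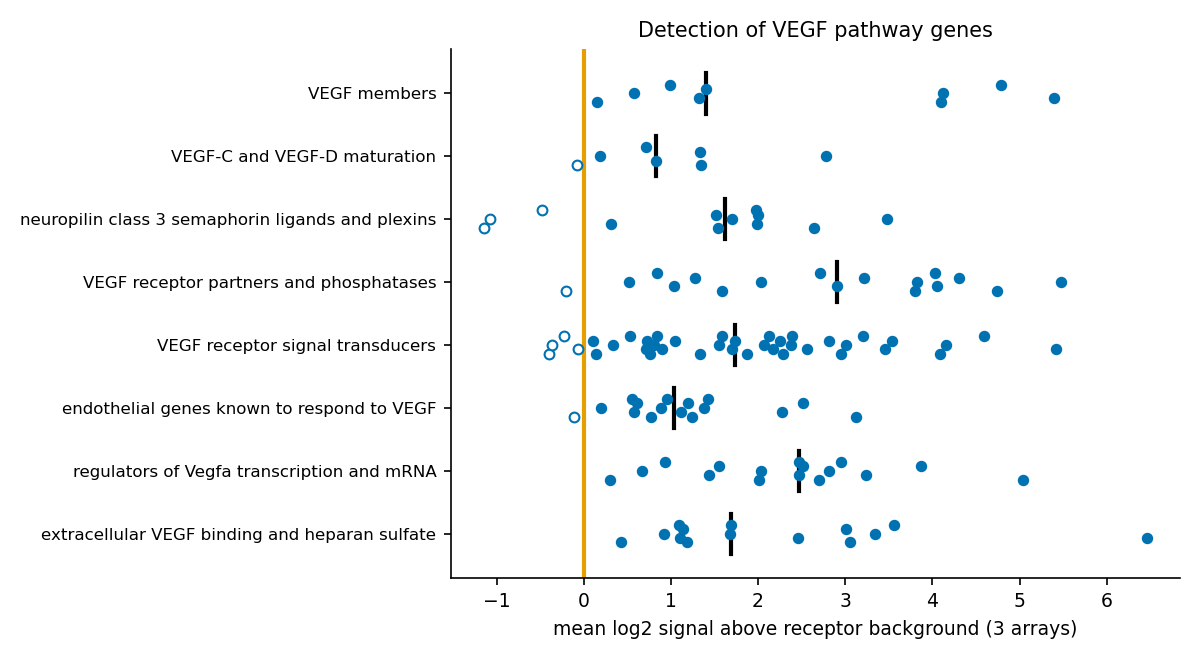
Mean log2 signal above receptor background over 3 arrays (horizontal axis, orange line at 0) of each gene in the VEGF members and 7 pathway lists (rows), with filled points for detected genes, open points for those not detected and black bars for list medians. All 9 members are filled, and the 10 open points belong to 5 of the lists.

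Cell type markers were read beside the members, because podocytes, endothelium and tubule can each contribute to these signals. All 10 podocyte markers measured were detected, and their summed linear signal ran from 25893 to 27465 over the arrays. All 14 endothelial markers other than VEGF receptors were detected as well, with sums from 20914 to 22185. The defining markers of the labelled structure were thus present, among them Podxl at 12.33 and the endothelial sialoglycoprotein gene Emcn at 12.86 log2. Of 13 proximal tubule markers 12 were detected, led by Kap at 10.61, with sums from 4712 to 5522, and Cubn was not. Of 9 markers of thick limb, distal tubule and collecting duct 7 were detected, led by Calb1, with sums from 2876 to 2984, and Slc12a1 and Scnn1g were not. All 7 mesangial markers (led by Ptn, sums from 14823 to 15549), 5 of 6 smooth muscle markers (led by Myl9, not Cnn1, sums from 3218 to 4357) and 6 of 8 immune markers (led by Tyrobp, not C1qa or Adgre1, sums from 2032 to 2695) were detected. All of these counts stand against 58.9% of all genes detected by the same rule.

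Of 5 lymphatic endothelial markers, read beside Flt4 and Vegfc, 2 were detected, against 58.9% of all genes. Itga9, also used outside lymphatic vessels, was at 8.89 ± 0.11 log2 (SD, n = 3), and Lyve1 at 7.07 ± 0.06 was 0.15 above background. Lyve1 was thus as marginal as Flt4, with a mean linear signal of 135 that lay under 150 and under the 99th percentile of receptors. Prox1, the transcription factor gene that defines lymphatic endothelium, was not detected at 5.88, nor were Reln and Mmrn1. The summed linear signal of the list ran from 754 to 814.

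The ligand genes whose signals differed between all arrays shared the array on which they were lowest. On replicate 2 the deviation from the mean of the arrays was -0.07 log2 for Vegfa, -0.28 for Vegfc and -0.22 for Vegfd. Of the 3013 detected genes with 3 different values, 942 (31.3%) were lowest on that array. On replicate 2 podocyte markers deviated by a mean of -0.026 log2 and endothelial markers by -0.042. Mean deviations there were 0.099 for smooth muscle, 0.078 for proximal tubule, 0.087 for later tubule segments and 0.12 for immune markers. Genes within the smooth muscle and both tubule lists went both ways there. Of the lead genes, Kap deviated by 0.17 and Tyrobp by 0.44, but Myl9 by -0.12 and Calb1 by -0.21. On replicate 3, where Vegfc was highest, podocyte markers deviated by -0.025 and smooth muscle markers by 0.092, both close to their values on replicate 2. By summed linear signal, smooth muscle markers were instead highest on replicate 3, at 4357 against 3721 on replicate 2. The mean deviations of the other lists differed between these arrays. On replicate 3 endothelial markers deviated by 0.0012, proximal tubule markers by 0.015, later tubule markers by -0.073 and immune markers by -0.14. Mesangial markers deviated by 0.0024 on replicate 2 and 0.042 on replicate 3. Replicate 1 was the highest for Vegfa (0.10) and Vegfd (0.16), and Vegfc was at 0.071 there. On that array podocyte and endothelial markers deviated by 0.050 and 0.040, and mesangial markers by -0.045. Smooth muscle, proximal tubule, later tubule and immune markers deviated on replicate 1 by -0.19, -0.094, -0.014 and 0.018. The part of these shifts in the ligand signals was not tested, and 3 arrays of 1 group allow no correlation and no search for genes of like pattern.

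**Figure D4:**
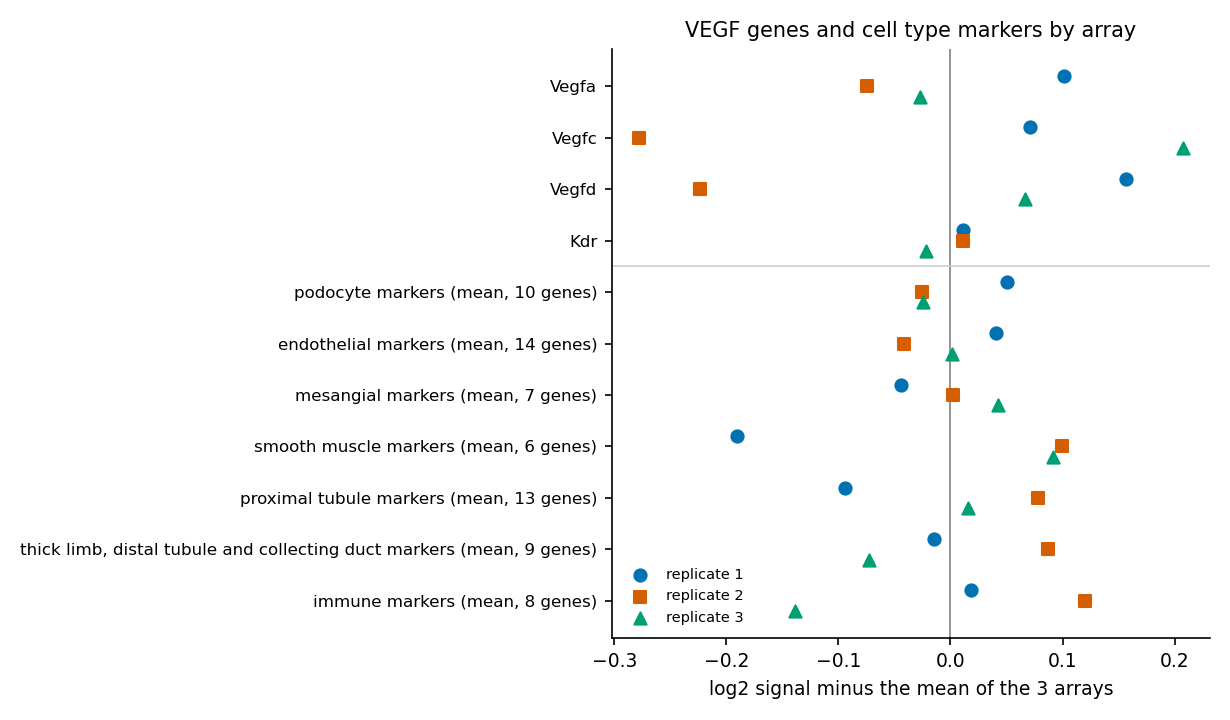
Deviation of the log2 signal from the mean of the 3 arrays (horizontal axis) for Vegfa, Vegfc, Vegfd and Kdr and, as means over genes, for 7 marker lists (rows), with a symbol for each replicate. Replicate 2 is the lowest for the 3 ligand genes and the highest for proximal tubule, later tubule and immune markers. For smooth muscle markers it lies only just above replicate 3.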

How the data were processed

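RNA of the 3 corpuscle samples was amplified in 1 NuGEN round, labelled and read on Affymetrix mouse arrays. The authors deposited log2 signals, 1 value per probe set and array. Affymetrix Expression Console is named in the submitters' processing notes (no version), while the settings for summary and normalization were not given in the sources used here. Array medians were 7.11, 7.11 and 7.09, and values were used as deposited. The table holds 0 columns of other samples. Gene symbols came from the platform annotation (1 symbol for 21789, several for 1621, unnamed here 12147). A gene took its probe set of highest mean log2. Linear signals are 2 to the power of the log2 value.

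Detection was tested with limma 3.58.1 in R 4.3.3, on log2 signal minus the background level of the same array. The fit had an intercept only, eBayes used a trend on level, the test was one-sided, and Benjamini-Hochberg adjustment ran over 19938 genes. Its standard error follows a gene's level, with no visible weight on its own spread. Single p-values of tied genes, and of genes that vary more than others of their level, are therefore too small. They are printed only from the fit with the spread of untied genes. The test was checked on simulated data. Nothing in the labels ties the pools to different litters or days, so the spread between these samples may be technical. For members with tied values the printed p-values rest on the spread of other genes on these arrays, not on their own. The number of arrays limits precision. Named are all members, the 3 detected genes of highest level above background and up to 2 undetected genes of each pathway list, and the highest detected and all undetected genes of each marker list. Adamts3, Nfatc2, Sphk1, Lyve1 and Sema3d, which fall outside it, were picked with their values in view. The members and lists were chosen with earlier results of these data known. Alternatives were other background levels, quantile normalization, no trend, other probe set rules, a low-level filter and leaving out each replicate.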

Additional observations from a re-analysis of the deposited data

How the results depend on the processing

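The count of 9 detected members stayed within 1.5 times under all alternatives run, between 7 and 9, as did the 111 detected pathway genes, between 97 and 121. Leaving out each replicate in turn gave 9 members every time. Of all genes, 18031 were detected with the median of receptors as background, against 11752, because that level is lower. The level above background turned negative for Pgf, to -0.062, and for Flt4, to -0.49, with the 99th percentile of receptors, and for Flt4, to -0.16, with a fixed linear signal of 150. Flt4 also lost its call with the spread of genes with 3 different values, an alternative chosen after seeing the data. Filtering out genes under the median level, 7.30 log2, removed Flt4 before the fit. That level lies above background, and all 9969 genes left were detected, so this alternative was no test of the calls of kept genes. The other 7 members kept their call in all 12 alternatives, that filter included. Each member has 1 probe set, so the rule for choosing among probe sets could not change it. No paired analysis was possible because there is a single group.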

Other observations

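Many linear signals that were the same on all 3 arrays lay near whole numbers divided by 3. Of 9961 such genes under a linear signal of 500, 56.8% lay within 0.02 of such a number, against 26.1% of 2054 genes with 3 different values. Of the 4 tied members under 500, Flt4 (134.673), Pgf (180.673) and Vegfb (241.996) lay that near, and Nrp2 (321.171) did not. Such numbers occurred among genes with 3 different values too, so 26.1% is not a level free of the pattern. The cause was not tested.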
